A study of Mus musculus with 24 samples.

Results

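The immunoglobulin kappa variable (Igkv) segments were followed in bone marrow RNA of 24 mice from the MHU-3 spaceflight mission. The members were all rows of the expression table whose Ensembl gene ID, without its version, carries a symbol beginning with Igkv in GENCODE release M21. This gave 160 segments of 54752 genes, and all lie on mouse chromosome 6. The table has 29 other rows whose ID has no symbol in M21. Of the 160 segments, 100 are annotated as V genes and 60 as V pseudogenes.

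The mice were male C57BL/6 animals in 4 groups of 6. Wild-type mice were ground controls (GC-WT) or flew (FL-WT), and so were Nrf2-knockout mice (GC-KO and FL-KO). Nrf2 is the transcription factor, encoded by Nfe2l2, that switches on antioxidant and cytoprotective genes, and the knockout mice lack it in every tissue. The flight mice spent 31 days on the International Space Station and were dissected 2 days after landing, and the ground controls were kept in the same single cages in Japan. The flight mice were 8 weeks old when they were moved to the launch site 3 weeks before launch. Marrow cells of the right pelvis and tibia were cryopreserved before RNA was prepared. Flight and ground mice were sampled at different sites, so site and flight cannot be told apart.

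The kappa light chain of an antibody is encoded by 1 V segment joined to 1 J segment (Igkj) and spliced to the constant region Igkc. The RAG recombinase makes this join in small pre-B cells of the marrow, after the heavy chain has been assembled. Segments in the same orientation as Igkj and Igkc, here the plus strand, join by deletion of the DNA between, and segments on the minus strand join by inversion. Each B cell and its progeny normally keep 1 productive kappa join, so a B cell or plasma cell clone transcribes mainly 1 Igkv segment, and plasma cells hold far more immunoglobulin mRNA per cell than B cells.

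The germline ends of 12 segments are shown because the results below turn on them. They are the last 60 bases of the annotated V exon, read 5′ to 3′ from the GENCODE M21 transcripts of GRCm38, and are reference sequence, not reads of these mice. Capitals mark the bases from the conserved cysteine codon to the end of the segment, the germline part of the V-J junction. The codons after the cysteine belong to the third complementarity-determining region, a loop that touches antigen. The first 4 segments are those with a high mean and the most even level between mice.
Igkv15-103, chr6:68437866-68437925, plus strand: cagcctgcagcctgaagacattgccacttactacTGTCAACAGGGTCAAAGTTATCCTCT
Igkv1-110, chr6:68271208-68271267, plus strand: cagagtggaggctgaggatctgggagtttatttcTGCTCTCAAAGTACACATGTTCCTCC
Igkv1-117, chr6:68121768-68121827, plus strand: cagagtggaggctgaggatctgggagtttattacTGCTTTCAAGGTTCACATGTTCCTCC
Igkv1-135, chr6:67610449-67610508, plus strand: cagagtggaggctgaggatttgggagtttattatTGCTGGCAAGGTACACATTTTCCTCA
The next 5 reached a large share of all Igkv RNA in single mice.
Igkv4-55, chr6:69607275-69607334, minus strand: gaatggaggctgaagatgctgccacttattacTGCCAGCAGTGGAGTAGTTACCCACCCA
Igkv4-59, chr6:69438218-69438277, minus strand: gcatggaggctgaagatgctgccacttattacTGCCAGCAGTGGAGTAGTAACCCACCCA
Igkv4-70, chr6:69267888-69267947, minus strand: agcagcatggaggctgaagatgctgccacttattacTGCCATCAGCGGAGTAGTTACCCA
Igkv8-30, chr6:70117061-70117120, minus strand: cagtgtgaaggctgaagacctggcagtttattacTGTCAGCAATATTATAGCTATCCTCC
Igkv19-93, chr6:68736297-68736356, minus strand: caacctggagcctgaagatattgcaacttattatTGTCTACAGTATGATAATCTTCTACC
The last 3 passed the test in at least 1 comparison.
Igkv9-120, chr6:68050397-68050456, plus strand: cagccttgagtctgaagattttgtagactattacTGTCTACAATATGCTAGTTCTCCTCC
Igkv12-89, chr6:68834846-68834905, minus strand: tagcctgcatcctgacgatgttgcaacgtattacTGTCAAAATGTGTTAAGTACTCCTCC
Igkv8-27, chr6:70171809-70171868, minus strand: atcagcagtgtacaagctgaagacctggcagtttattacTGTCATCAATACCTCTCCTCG
The cysteine codon was found in frame in 100 of the 100 V genes, and the capitals ran over 21 to 32 bases with a median of 26. These germline ends were 88 different sequences, and 22 V genes shared theirs with another. The largest such set was Igkv4-59, Igkv4-68, Igkv4-71 and Igkv4-72, with mean levels from 0.251 to 28.7 TPM. Igkv4-70 shared its end with Igkv4-69, at 24.01 and 1.104 TPM. At the other end, Igkv13-84 and Igkv13-85 shared theirs at 3.09 and 3.74 TPM.

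Values are TPM, transcript abundances corrected for transcript length and scaled to a total of 1000000 per library. The sequencing depth behind them is unknown, so no counting error can be given, and in such bulk RNA fewer cells of a type and less RNA per cell cannot be told apart. Of the 160 segments, 121 were above 0 TPM in at least 1 mouse, 63 were above 0 in every mouse and 39 were listed at 0 throughout. All 100 V genes were above 0 in at least 1 mouse, against 21 of the 60 pseudogenes. The pseudogenes together held 0.277% of the summed mean, and the 3 with the highest means were Igkv4-77 at 0.523, Igkv4-73 at 0.335 and Igkv1-108 at 0.170 TPM.

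The RNA was spread along the whole locus. The 53 segments nearest to the J segments held 39.8% of the summed mean TPM, the 53 in the middle 24.7% and the 54 farthest away 35.5%. The plus strand held 75 members with 37.1% of the summed mean, and the minus strand 85 members with 62.9%. The 62 V genes of the minus strand outnumbered the 38 of the plus strand in about the same proportion.

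The 12 segments with the highest means held 44.8% of the summed mean and the first 20 held 62.6%. Igkv4-55 led with 37.3 TPM, followed by Igkv15-103 with 33.5, Igkv10-96 with 29.2, Igkv4-59 with 28.7, Igkv19-93 with 24.4 and Igkv4-70 with 24.01. Igkv12-46, Igkv5-43, Igkv1-110, Igkv1-117, Igkv8-30 and Igkv6-23 followed between 21.8 and 19.9 TPM. These means hide unequal spreads, so their order is not that of a typical mouse: over the 24 mice Igkv4-55 ran from 3.77 to 167.9 TPM with a median of 19.2, while Igkv15-103 ran from 13.8 to 56.8 with a median of 33.6.

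**Figure D1:**
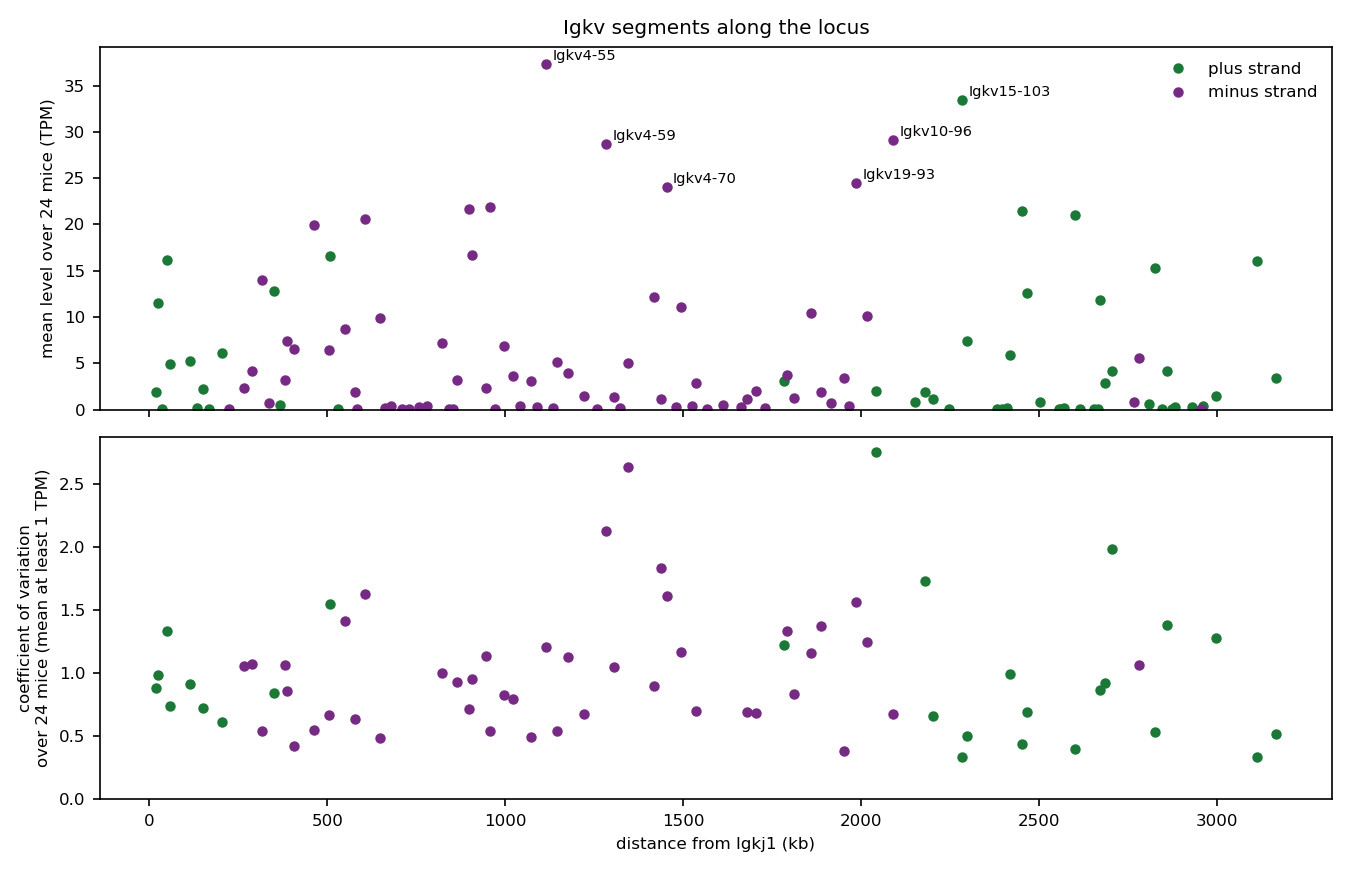
Top, mean TPM over 24 mice of every Igkv segment above 0 against its distance from Igkj1 in kb; bottom, the coefficient of variation (SD over mean, 24 mice) of the 71 segments with a mean of at least 1 TPM. Green points are on the plus strand and purple points on the minus strand; high levels occur along the whole locus, and neighbouring segments differ widely in level and in spread.

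Neither the number of segments detected nor the evenness of their use separated the groups. A mouse had between 85 and 100 segments above 0 TPM, with group means of 93.5 ± 2.59 (GC-WT mice), 92.5 ± 3.73 (FL-WT mice), 93 ± 5.14 (GC-KO mice) and 90.8 ± 4.40 (FL-KO mice; SD, n = 6 each). In this order of groups, which is kept wherever 4 values follow each other below, the means above 1 TPM were 66.5, 63.8, 63.7 and 61 segments. Usage was summarised by the effective number of segments, the exponential of the Shannon entropy of the shares, which is the number of equally used segments that would give the same evenness. It was 40.3 ± 7.49, 40.01 ± 5.62, 39.8 ± 5.56 and 41.5 ± 5.81. The lowest and highest single mice, 29.99 and 49.9, were both GC-WT.

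The summed Igkv level had lower group means in flight mice than in ground mice of the same genotype, and in knockout than in wild-type mice of the same housing, but every pair of groups overlapped. GC-WT mice ran from 506 to 1357 TPM with a median of 828 and a mean of 873 ± 360. FL-WT mice ran from 353 to 1034 with a median of 743 and a mean of 712 ± 247. GC-KO mice ran from 493 to 863 with a median of 587 and a mean of 637 ± 133. FL-KO mice ran from 376 to 616 with a median of 468 and a mean of 487 ± 86.6. The ratio of means was 0.815 for flight in wild-type mice (FL-WT vs. GC-WT) and 0.765 for flight in knockout mice (FL-KO vs. GC-KO). It was 0.729 for the knockout on the ground (GC-KO vs. GC-WT) and 0.684 for the knockout after flight (FL-KO vs. FL-WT). These 4 comparisons are kept in this order below. The spread between GC-WT mice was the widest of the 4.

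The size of these differences depended on how libraries were scaled. The median gene of all 12373 tested was itself lower by 0.22 to 0.29 on the log2 scale in the 4 comparisons, and 5 abundant small RNAs took 35.4% to 59.6% of TPM per library. After median-of-ratios scaling, which sets the median gene equal between libraries, the summed means of the 4 groups were 667 ± 271, 673 ± 181, 627 ± 124 and 650 ± 141. Under that scaling the flight means were slightly above the ground means, the opposite direction to the TPM values. With the 5 small RNAs left out and the rest rescaled, the summed means were 1761 ± 879, 1354 ± 394, 1147 ± 182 and 1006 ± 205. These kept the direction of the TPM values in all 4 comparisons. No test was run on the sum.

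The constant region stayed within a narrow ratio to the V segments. Igkc ran from 441 to 1769 TPM over the 24 mice, and the summed Igkv level was 0.803 ± 0.0747 of Igkc (SD, n = 24), within 0.613 to 0.949 in every mouse. By group the ratio was 0.760 ± 0.107, 0.788 ± 0.0430, 0.868 ± 0.0582 and 0.796 ± 0.0357. All 5 Igkj segments were listed at 0 in all 24 mice.

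**Figure D2:**
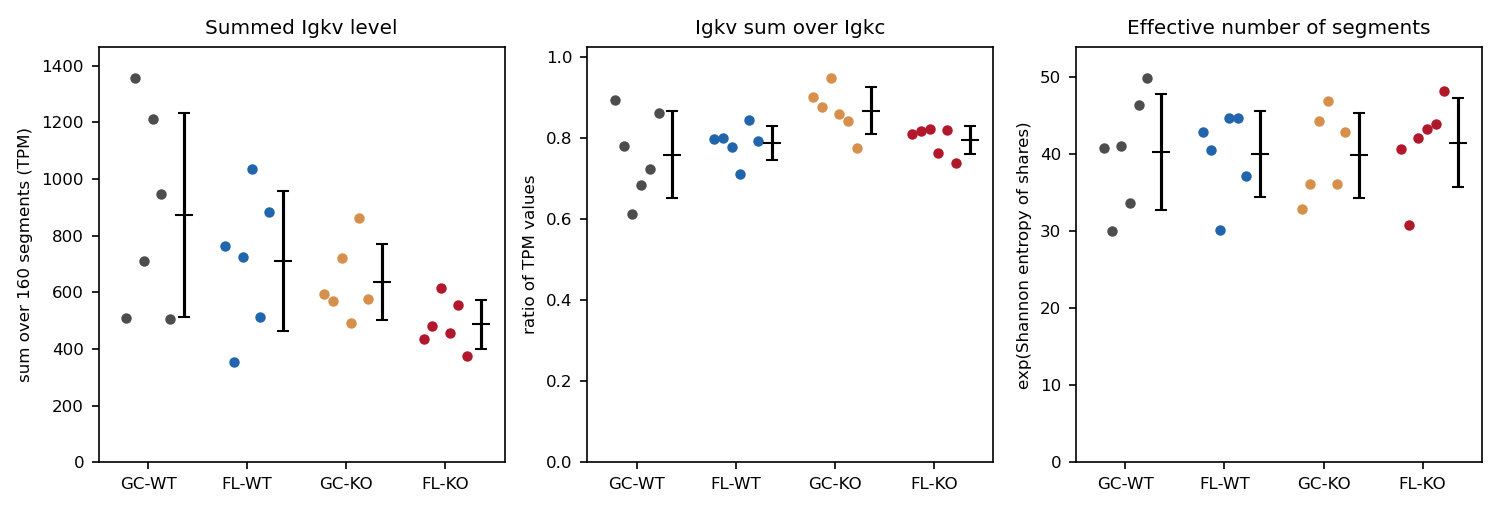
Points are mice, 6 per group; the bar beside each group gives its mean and SD. From left to right: the summed Igkv level in TPM, the ratio of that sum to Igkc, and the effective number of segments; the group means of the sum step down from 873 to 487 TPM with overlapping mice, while the ratio and the effective number overlap without such a step.

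Single segments took very different shares in different mice. The segment with the largest share was one of 17 across the 24 mice, and 13 of those 17 led in 1 mouse each. Igkv4-55 led in 4 mice and Igkv15-103 in 3. The leading share ran from 6.46% to 23.5% of the summed Igkv level, and in 7 mice it was above 15%. The 3 leading segments of a mouse together held between 17.7% and 39.1%.

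Igkv8-30 held 23.5% in GC-KO mouse 1, at 139.8 TPM, where the other 5 GC-KO mice had at most 9.75 TPM. Igkv4-59 held 22.9% in GC-WT mouse 5, at 310.9 TPM against at most 20.99 in the rest of that group. Igkv4-55 held 23.2% in FL-WT mouse 6 and 19.0% in GC-KO mouse 2. Igkv4-70 held 20.5% in GC-KO mouse 11, Igkv19-93 15.01% in GC-WT mouse 7 and Igkv6-17 15.8% in FL-WT mouse 5. Except for Igkv6-17, these are the segments printed above for their large shares. In FL-KO no segment passed 13.9% of a mouse's Igkv RNA.

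**Figure D3:**
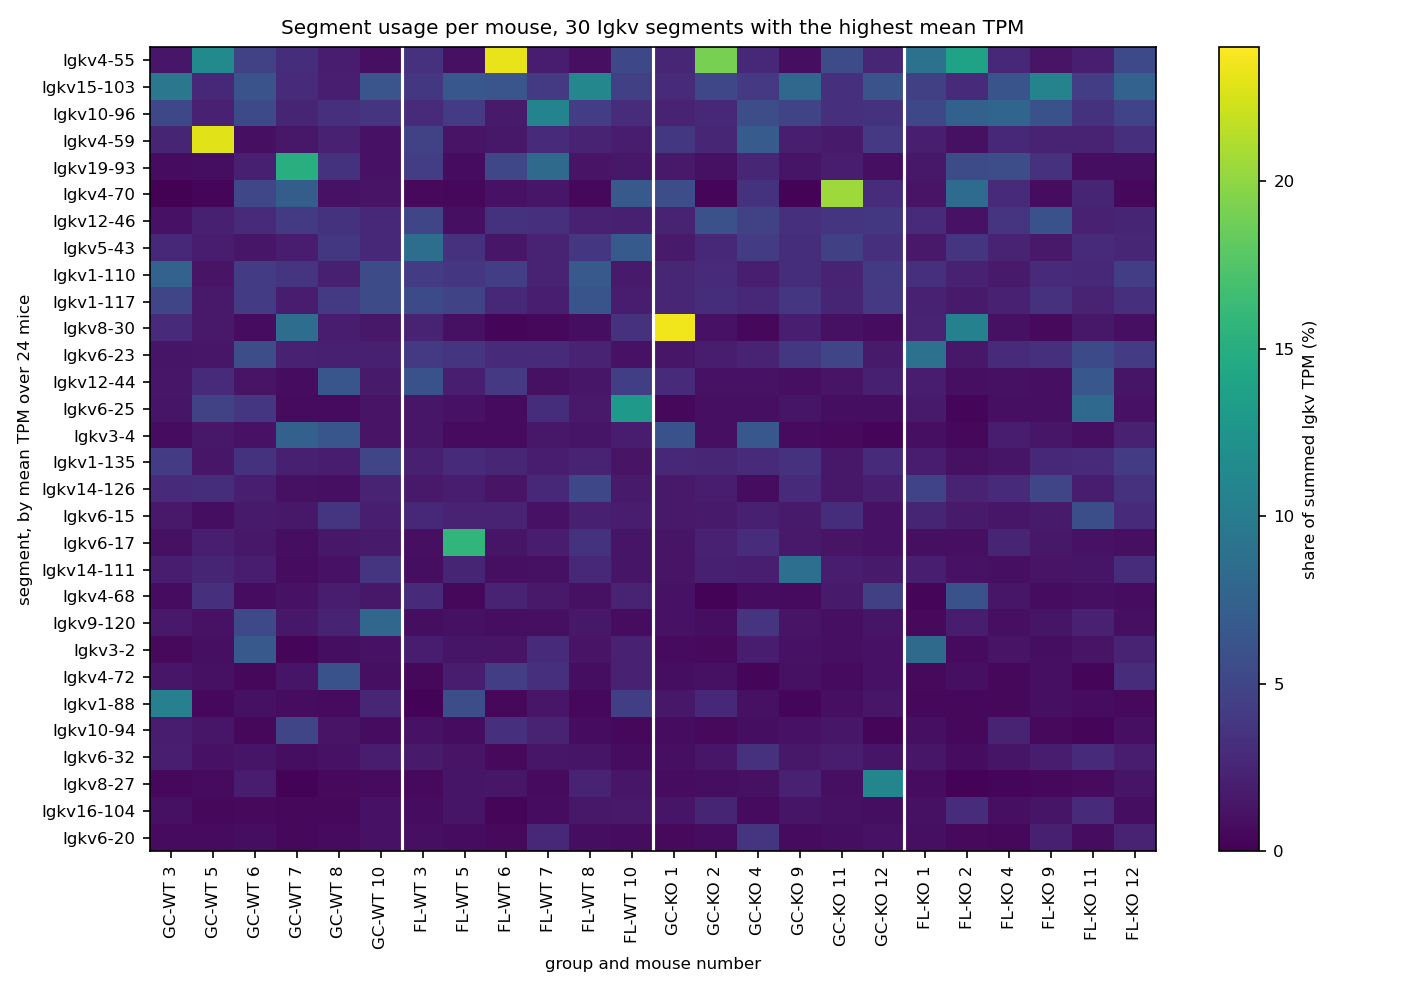
Share of the summed Igkv TPM, in percent, of the 30 segments with the highest mean TPM (rows) in each of the 24 mice (columns, by group and mouse number; white lines separate the groups). The brightest cells, such as Igkv8-30 in GC-KO mouse 1 at 23.5%, fall on different segments in different mice, while Igkv15-103 and Igkv1-117 are present at a moderate share in every mouse.

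The spread between mice was larger for Igkv segments than for the genes in general. Over the 90 tested segments the median coefficient of variation across 24 mice was 0.935, against 0.329 over all 12373 genes tested. Within groups the medians were 0.735 and 0.220. The heavy chain variable (Ighv) segments had a median of 1.01 over 93 tested, close to Igkv. The 6 tested lambda light chain genes had a median of 0.312, close to genes in general. They mix V and constant region genes, so they are not a like comparison for the V segments of the other chains.

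Among the 71 segments with a mean of at least 1 TPM, 8 had a coefficient of variation below 0.5, a limit set after the values were seen. They were Igkv15-103, Igkv1-110, Igkv1-117, Igkv1-135, Igkv6-32, Igkv8-21, Igkv4-91 and Igkv4-53, with coefficients from 0.332 to 0.494. They lay in all 3 parts of the locus, 2 near the J segments, 2 in the middle and 4 far away, and 4 were on each strand. The 28 segments with a coefficient of at least 1 held 38.3% of the summed mean, and the 8 even ones held 17.0%.

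The summed level of the 8 even segments in the 4 groups was 140 ± 15.1, 129 ± 29.97, 108 ± 14.7 and 82.6 ± 21.6 TPM. GC-WT mice, from 122.3 to 156.4 TPM, did not overlap GC-KO mice, from 81.9 to 120.7, or FL-KO mice, from 49.4 to 106.5. Of all single genes 9.15% were lower in every GC-KO mouse than in any GC-WT mouse. The share for FL-KO against GC-WT mice was not computed. The 8 segments were picked for their even level over these same mice, so the gap is no independent result. After median-of-ratios scaling the same sums were 109 ± 19.4, 124 ± 26.3, 107 ± 17.51 and 107 ± 18.9, and the groups overlapped. The 28 uneven segments summed to 373 ± 273, 255 ± 143, 248 ± 85.5 and 162 ± 56.3 TPM, the largest SD in each group of the even, intermediate and uneven classes.

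Among families of related segments Igkv4, the largest with 33 members, held 21.1 ± 9.02% of the summed level over 24 mice, Igkv6 held 13.2 ± 5.08% and Igkv1 12.2 ± 5.04%. The Igkv1 share by group was 14.5 ± 8.16%, 12.8 ± 3.62%, 12.3 ± 3.53% and 9.32 ± 2.75%. The Igkv8 share in GC-KO, 11.4 ± 8.90%, included 27.4% in the mouse with the large Igkv8-30 value, and the other groups lay between 5.70% and 6.48%. These family shares overlapped between groups.

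Each segment was then tested with limma on log2(TPM + 1) over all 24 libraries, with Benjamini-Hochberg adjustment over the 12373 genes above 1 TPM in at least 1 library. Of the 160 members 90 entered, 87 V genes and 3 pseudogenes, and 70 were too low. A gene was called where its adjusted p was under 0.1 and its fold change at least 2, the criteria of the study. Fold changes on this scale understate the change of low genes. The median standard error was 0.349 for the Igkv segments and 0.140 for all genes. For single genes the two-sided exact permutation test of the rank sum, 6 mice against 6, is given as well, and its smallest possible p is 0.00216.

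In wild-type mice, the comparison FL-WT vs. GC-WT asked what spaceflight changed in marrow with Nrf2, and 1 of the 90 segments fell. Igkv9-120 was between 8.11 and 40.3 TPM in GC-WT mice, with a median of 20.2, and between 3.91 and 10.2 in FL-WT mice, with a median of 6.69. Only the lowest GC-WT mouse lay within the range of the flight mice. The log2 fold change was -1.51 ± 0.35 (SE), with a limma adjusted p of 0.00314 and an exact permutation p of 0.00433.

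The share of segments called lower in FL-WT vs. GC-WT, 1 of 90, was near the 0.938% of all genes called lower. None was called higher, where all genes gave 0.0647%, and 2 were higher at an unadjusted limma p under 0.05, against 1.1% of all genes. Without a minimum fold change 6 of 90 segments were lower at an adjusted p under 0.1, against 39.0% of all genes. No segment had all flight mice below all ground mice, against 4.19% of all genes. Igkv1-135 was among the 6, with a log2 fold change of -0.62 ± 0.20, from 22.5 ± 3.35 to 14.6 ± 3.90 TPM (limma adjusted p = 0.0236).

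In knockout mice, FL-KO vs. GC-KO asked the same without Nrf2, and 3 of the 90 segments fell. Igkv8-27 was between 4.66 and 63.8 TPM in GC-KO mice, with a median of 8.42, and between 0.99 and 5.19 in FL-KO mice, with a median of 2.995. A single FL-KO mouse lay above the lowest GC-KO mice. The log2 fold change was -1.61 ± 0.43, with a limma adjusted p of 0.00577 and an exact permutation p of 0.00866. Igkv9-124 went from a median of 6.64 to 2.13 TPM (-1.23 ± 0.49, limma adjusted p = 0.0466) and Igkv1-88 from 8.61 to 2.84 TPM (-1.07 ± 0.51, limma adjusted p = 0.0907). Their exact permutation p was 0.0260 and 0.0649. After median-of-ratios scaling Igkv8-27 alone was called, beside 26 lower and 8 higher of all 12373 genes. Leaving out GC-KO mouse 9 or FL-KO mouse 2 ended the call of Igkv9-124, and leaving out GC-KO mouse 1, 2, 4, 11 or 12 or FL-KO mouse 1, 2, 4 or 12 ended that of Igkv1-88.

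These 3 of 90 stood beside 2.13% of all genes called lower in FL-KO vs. GC-KO. No segment and 0.0% of all genes were called higher, and at an unadjusted limma p under 0.05 none was higher, against 0.291% of all genes. At an adjusted p under 0.1 with no minimum fold change 11 of 90 were lower, against 53.1% of all genes. No segment separated the groups, against 18.4% of all genes lower in every flight mouse. Igkv1-117, one of the even segments, was among the 11 with a log2 fold change of -0.66 ± 0.18, from 19.5 ± 2.79 to 12.1 ± 2.72 TPM (limma adjusted p = 0.00718).

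Between the ground groups, GC-KO vs. GC-WT asked what the loss of Nrf2 changed without flight, and 3 of the 90 segments fell. Igkv12-89 was between 0.54 and 10.7 TPM in GC-WT mice, with a median of 3.44, and at most 0.83 in GC-KO mice, with a median of 0.575. The log2 fold change was -1.53 ± 0.37 (limma adjusted p = 0.00234, exact permutation p = 0.0152). All GC-KO mice were low, and only the lowest GC-WT mouse reached down to them. Igkv9-120 went from a median of 20.2 to 7.44 TPM (-1.21 ± 0.35, limma adjusted p = 0.00761), although GC-KO mouse 4 had 26.2 TPM. Igkv2-109 went from 4.33 to 3.03 TPM in the median (-1.05 ± 0.42, limma adjusted p = 0.0493), and GC-WT mice 7 and 8, at 23.9 and 20.6 TPM, stood above all others. Its call was lost without GC-WT mouse 7 or 8 or GC-KO mouse 2 or 4. The exact permutation p was 0.0411 for Igkv9-120 and also for Igkv2-109.

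All genes gave 3.04% called lower and 0.129% called higher in GC-KO vs. GC-WT, and no Igkv segment was called higher. None was higher at an unadjusted limma p under 0.05 either, against 3.29% of all genes. With no minimum fold change 7 of 90 segments were lower at an adjusted p under 0.1, against 42.9% of all genes. None separated the groups, against 9.15%. The split of 3 lower and 0 higher became 1 lower and 2 higher after median-of-ratios scaling, with Igkv8-27 and Igkv9-124 higher. Of all 12373 genes 65 were then called lower and 34 higher. Igkv1-110 was among the 7 with a log2 fold change of -0.66 ± 0.22, from 29.6 ± 10.6 to 17.7 ± 3.604 TPM (limma adjusted p = 0.0190).

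After flight, FL-KO vs. FL-WT asked for the effect of Nrf2 loss in mice that had all flown, and 6 of the 90 segments fell. Igkv6-17 was between 7.85 and 55.6 TPM in FL-WT mice, with a median of 15.1, and between 3.57 and 15.1 in FL-KO mice, with a median of 5.60 (-1.28 ± 0.37, limma adjusted p = 0.00625, exact permutation p = 0.0152). Without FL-WT mouse 5, at 55.6 TPM, it was no longer called. Igkv8-27 went from a median of 8.85 to 2.995 TPM (-1.25 ± 0.43, limma adjusted p = 0.0205, exact permutation p = 0.00866). Igkv4-72, Igkv1-88, Igkv12-44 and Igkv5-43 had log2 fold changes of -1.27, -1.20, -1.10 and -1.07, with limma adjusted p from 0.0255 to 0.0889. In that order their exact permutation p was 0.0931, 0.3095, 0.0649 and 0.0649. FL-WT mice of Igkv1-88 ran from 1.81 to 39.0 TPM, so that its 6 FL-KO mice, from 2.28 to 4.59, lay inside the wild-type range. Igkv8-27 was called whichever mouse was left out, while Igkv4-72 was lost without FL-WT mouse 6 or 7 and Igkv5-43 without FL-WT mouse 3 or 10 or FL-KO mouse 1 or 9. Igkv1-88 was lost without FL-WT mouse 5, 7 or 10 or FL-KO mouse 1, 2 or 12. Igkv12-44 was lost without FL-WT mouse 3, 6 or 10 or any FL-KO mouse but number 11.

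The 6 of 90 stood beside 8.36% of all genes called lower in FL-KO vs. FL-WT. None was called higher, against 0.097%, and none was higher at an unadjusted limma p under 0.05, against 1.91%. After median-of-ratios scaling the split of 6 lower and 0 higher became 0 lower and 1 higher, Igkv10-95. Under that scaling 370 of all 12373 genes were called lower and 29 higher. With no minimum fold change 13 of 90 segments were lower, against 47.2% of all genes.

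Igkv1-117 and Igkv14-100 were lower in every FL-KO mouse than in any FL-WT mouse, 2 of 90 segments against 20.6% of all genes. Igkv1-117 was between 16.7 and 41.4 TPM in FL-WT mice and between 8.25 and 15.5 in FL-KO mice (-0.93 ± 0.18, limma adjusted p = 0.000188, exact permutation p = 0.00216, the smallest this test can give). Igkv14-100 went from 1.90 ± 0.723 to 0.632 ± 0.274 TPM (-0.81 ± 0.21, limma adjusted p = 0.00302). Neither reached the fold of 2. Igkv1-110, 97.5% identical in transcript to Igkv1-117, went from 25.02 ± 8.99 to 13.4 ± 2.41 TPM (-0.79 ± 0.22, limma adjusted p = 0.00455), and reads of the pair may have been divided between them by the estimate.

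**Figure D4:**
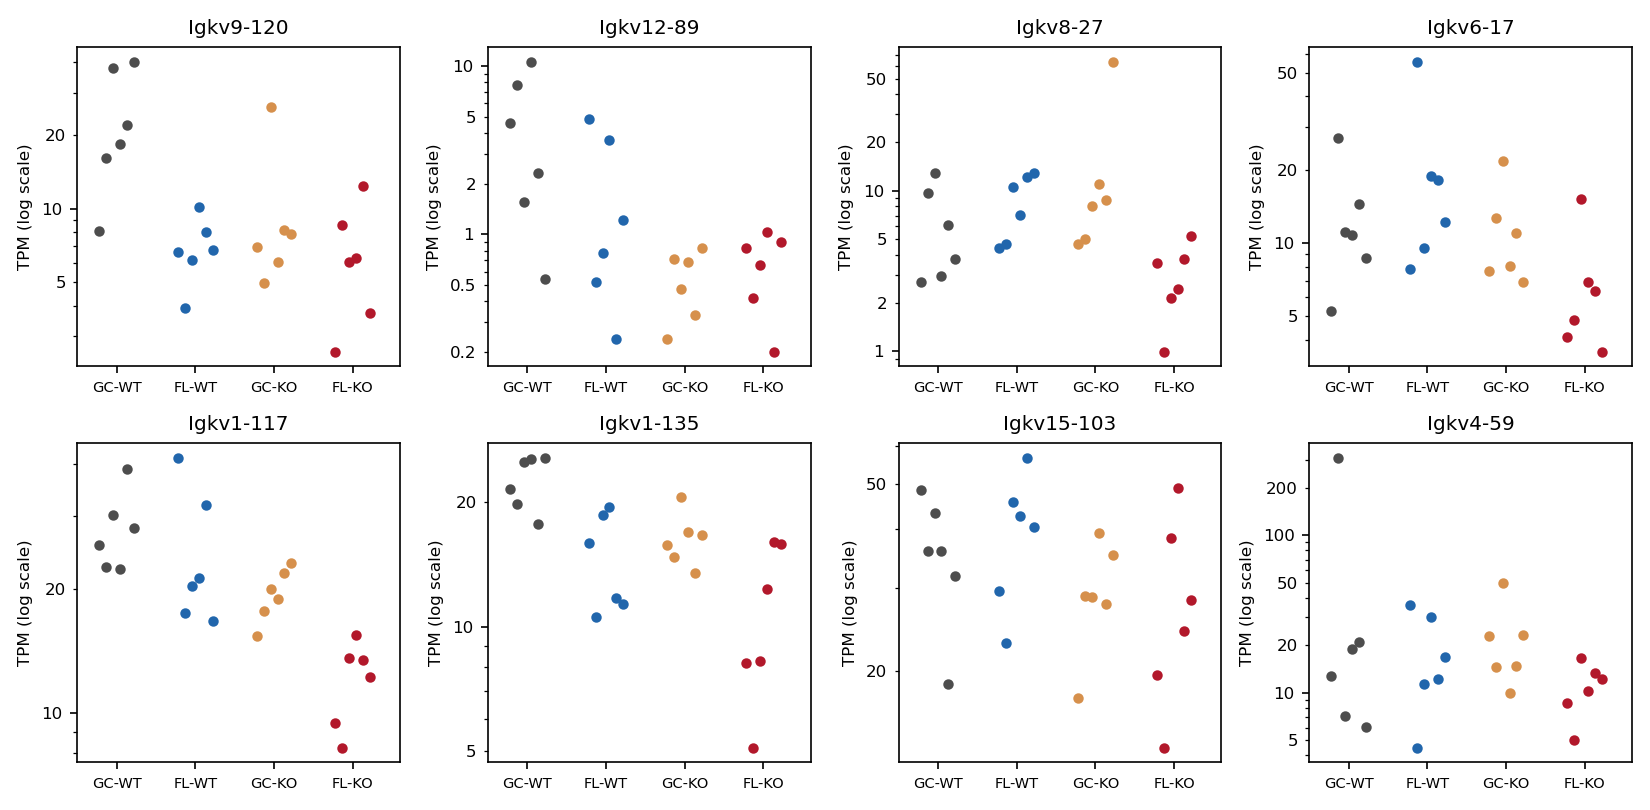
TPM on a log scale in each mouse, 6 per group, for 4 segments that passed the test in at least 1 comparison (top) and for 3 even segments and the most uneven of the 12 highest, Igkv4-59 (bottom). Igkv9-120 is high in 5 of 6 GC-WT mice and in GC-KO mouse 4, Igkv1-117 is lowest in the FL-KO mice, and a single GC-WT mouse at 310.9 TPM sets the mean of Igkv4-59.

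The interaction of flight and genotype, the difference between the flight effects with and without Nrf2, was called for none of the 90 segments by limma, against 0.0162% of all genes. At an unadjusted p under 0.05 there were 7 of 90, against 3.46% of all genes, and the smallest adjusted p was 0.678, for Igkv8-27. Whether flight acted differently on any segment with and without Nrf2 was therefore not detectable at this spread. Each group enters more than 1 of the 4 comparisons, so the lists of called segments are not independent of each other.

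Across the segments, the median log2 fold change in the 4 comparisons was -0.10, -0.20, -0.16 and -0.27. The corresponding medians of all genes were -0.24, -0.29, -0.22 and -0.25. Relative to the median gene the segments thus stood at 0.14, 0.09, 0.06 and -0.02. After removal of a trend with GC content and length they stood at -0.01, -0.13, -0.21 and -0.30. The sign in the first 3 comparisons thus depended on the processing. With that trend removed 1, 2, 4 and 7 of the 90 segments were called lower, beside 23, 18, 41 and 149 of all 12373 genes. In the main fit 58, 67, 62 and 67 of the 90 segments had a negative value, or 64.4%, 74.4%, 68.9% and 74.4%. Among all genes the shares were larger, at 86.4%, 93.5%, 77.1% and 79.1%. The 12 highest segments had no call in the first 3 comparisons and 1, Igkv5-43, in the fourth.

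**Figure D5:**
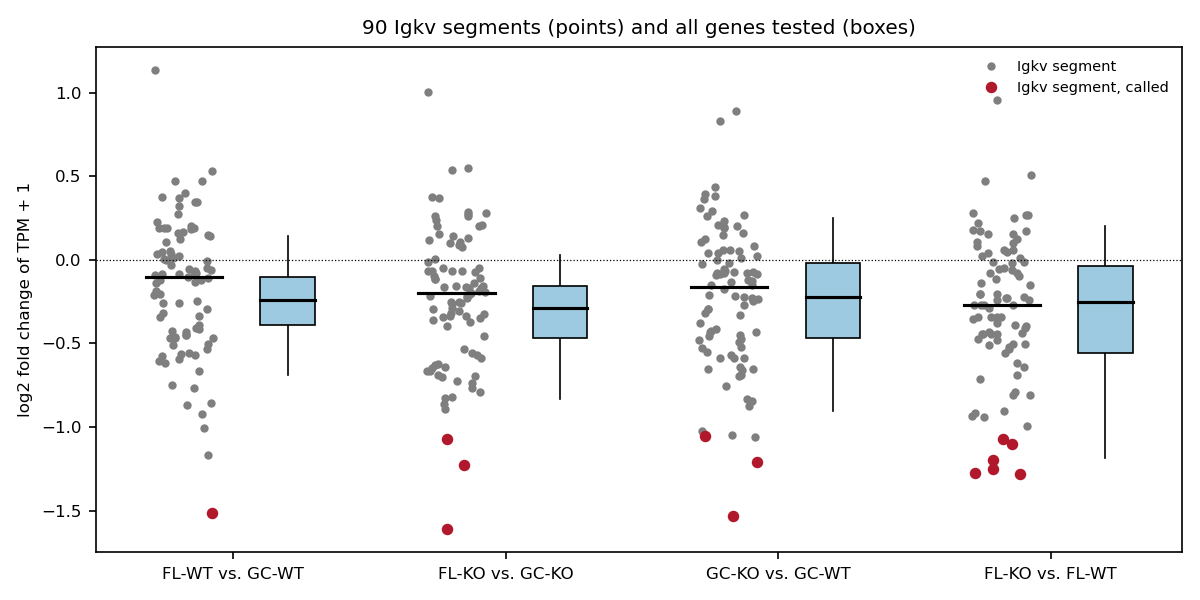
Log2 fold change of TPM + 1 in the 4 comparisons. Points are the 90 tested Igkv segments (red: adjusted p under 0.1 and fold change at least 2) with a bar at their median; boxes show the quartiles and median of all 12373 genes and whiskers their 5th and 95th percentiles. The segments scatter more widely than most genes, and their medians lie between -0.10 and -0.27.

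Genes that act around the kappa locus were described from lists chosen with earlier results of these data known. Igkc itself was not called: its log2 fold changes were -0.34, -0.26, -0.57 and -0.50 (SE 0.26) in the 4 comparisons in the order above, with limma adjusted p from 0.0849 to 0.416. Of 10 genes of V(D)J recombination, 1 was called lower in the first and 1 in the third comparison, both times Rag1, a subunit of the recombinase. Rag1 was 6.59, 2.54, 2.64 and 1.29 TPM in the 4 groups. A list of 4 genes around the surrogate light chain had 1 call in each of the 2 flight comparisons. The products of Igll1, Vpreb1 and Vpreb2 stand in for a light chain before kappa is joined. The called gene was the other member of the list, Vpreb3, at 58.1, 25.1, 33.1 and 12.8 TPM. No gene of either list was called higher. The shares of all genes called lower in the 4 comparisons, for reading these and the following counts, were 0.938%, 2.13%, 3.04% and 8.36%.

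Of 8 genes of B cell receptor signalling, 0, 0, 1 and 2 were called lower, and Cd79a, the signalling partner of surface immunoglobulin, was 75.8, 50.9, 41.5 and 22.1 TPM. Of 12 transcription factors known to act on the kappa locus, 2, 1, 5 and 3 were called lower, with median log2 fold changes of -0.78, -0.58, -0.86 and -0.78, where the medians of all genes were -0.24, -0.29, -0.22 and -0.25. Tcf3, which encodes E2A, was among them at 27.5, 15.2, 13.2 and 4.41 TPM. None of these genes was called higher.

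The tested plasma cell genes, 6 of 8, and lambda light chain genes, 6 of 7, had no call in any of the 4 comparisons. Jchain, which joins antibody monomers in plasma cells, was 81.2, 74.0, 83.7 and 63.8 TPM. The summed Igkv level was 10.98 ± 1.46, 10.1 ± 1.79, 7.75 ± 0.678 and 7.69 ± 1.04 times Jchain. It was 11.4 ± 4.17, 15.2 ± 6.48, 16.2 ± 5.12 and 22.5 ± 3.06 times Cd79a, so the ratio to Jchain was highest in GC-WT and the ratio to Cd79a highest in FL-KO. The lambda genes summed to 282 ± 40.8, 238 ± 71.2, 262 ± 30.1 and 185 ± 55.6 TPM.

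Of 93 Ighv segments tested, 7, 3, 15 and 21 were called lower and none higher, and their median log2 fold changes were -0.35, -0.31, -0.56 and -0.58. Their summed level was 440 ± 191, 305 ± 147, 188 ± 49.3 and 111 ± 30.5 TPM. The difference between the Ighv and Igkv segments was not tested.

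The marker lists for the cells of marrow were detected in every group, with no gene of a list at 0 in all mice of a group. The 12 markers of pro-B and pre-B cells summed to 279 ± 38.4, 164 ± 61.7, 181 ± 25.4 and 103 ± 21.2 TPM, with 2, 1, 1 and 1 of them called lower in the 4 comparisons. Mature B markers summed to 103 ± 17.95, 77.5 ± 27.4, 74.5 ± 11.1 and 56.3 ± 11.49 TPM, with 1 of 8 called lower for wild-type flight and none in the other comparisons. The 10 plasma cell markers, which include Iglv1 and Iglc1, summed to 295 ± 53.7, 261 ± 71.9, 283 ± 36.2 and 209 ± 50.2 TPM, with no call among the 8 that were tested. Of the T and NK, neutrophil, erythroid and monocyte lists, FL-KO vs. FL-WT called 1 of 7, 3 of 8, 1 of 7 and 2 of 5 genes lower. GC-KO vs. GC-WT called 0, 2, 0 and 1 lower, FL-KO vs. GC-KO 0, 1, 2 and 0, and FL-WT vs. GC-WT 0, 0, 2 and 0. The T and NK markers summed to 51.8, 53.5, 42.5 and 41.3 TPM, and the monocyte markers to 459, 505, 359 and 309 TPM. Neutrophil markers summed to 39060 ± 8344, 53990 ± 6852, 48440 ± 7844 and 53930 ± 7572 TPM. Erythroid markers summed to 107700 ± 29570, 114600 ± 16080, 142100 ± 22290 and 135300 ± 17970 TPM. Both sums had their lowest mean in GC-WT, but the single genes did not all follow them. From FL-WT vs. GC-WT to FL-KO vs. FL-WT the median log2 fold changes of the neutrophil genes were 0.20, -0.03, -0.70 and -0.93. Those of the erythroid genes were -0.18, -0.47, 0.36 and 0.07. The part of the cell makeup in the Igkv values was not tested. Nfe2l2 followed the labelled genotypes: wild-type mice had from 11.4 to 27.3 TPM and knockout mice from 2.22 to 7.18.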

How the data were processed

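RNA of cryopreserved marrow cells (ISOGEN-LS, 200 ng per library) was made into strand-specific libraries with the MGIEasy RNA Directional set and sequenced on the DNBSEQ-G400 by the authors. Reads were mapped to mm10 (GRCm38) with STAR 2.6.1, and the deposited TPM values per gene were estimated with RSEM 1.3.1, per the labels and the study's methods. The annotation release is not given in the sources used here. Columns sum to about 1000000, with 2 decimals and no counts, so the depth is unknown. RSEM divides reads that match several segments, and 24 members have a partner at 97% transcript identity or more.

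IDs were matched to GENCODE M21. The main test was limma 3.58.1 (R 4.3.3) on log2(TPM + 1), all 24 libraries, a mean per group, genes above 1 TPM in at least 1 library, checked on simulated data. Exact tests used scipy 1.17.1. Groups and mouse numbers came from the sample titles, and each mouse is 1 library. The members and lists were chosen with earlier results of these data known. Named were the 12 segments with the highest means, up to 6 called per comparison with a mean of at least 1 TPM, the 3 highest pseudogenes, any segment above 15% of a mouse's Igkv RNA, Igkc, Igkj1 to Igkj5 and Nfe2l2, and up to 3 genes per list. Igkv1-135, Igkv14-100, Igkv10-95, the even segments, Rag1, Vpreb3, Tcf3, Cd79a and Ighm, and the limits on the coefficient of variation, were chosen after values were seen. Alternatives were another pseudocount, filter, scaling between libraries, threshold or variance model, a GC and length trend, the 2 compared groups alone, a block of mouse number, and each mouse left out in turn. Sums, detected numbers and usage were described without tests.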

Additional observations from a re-analysis of the deposited data

Results flagged for a closer look

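In 29 of 120 groups of 6 mice, 1 mouse lay far from the other 5, with a gap to its nearest neighbour above Dixon's 95% critical value, relative to the group's whole range. Chance gives such a gap in about 1 in 20 groups if the values are normally distributed, which was not tested for these TPM values. Of the 29, 27 were among the 96 groups of the named segments. Some of those segments were named for a large share in 1 mouse or for a high mean that single mice set, so their count cannot be read against that rate. In all but one of these 27 the outlying mouse was the highest.

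Among the most abundant segments, Igkv4-55 reached 155.1 TPM in GC-WT mouse 5 (next 38.04) and 167.9 in FL-WT mouse 6 (next 46.3). Igkv10-96 reached 111.9 TPM in FL-WT mouse 7, and Igkv4-59 reached 310.9 in GC-WT mouse 5 and 49.49 in GC-KO mouse 4. Igkv19-93 reached 182 TPM in GC-WT mouse 7. Igkv4-70 reached 59.08 TPM in FL-WT mouse 10 and 177.2 in GC-KO mouse 11, where Igkv6-23 reached 43.67. Igkv8-30 reached 104.3 TPM in GC-WT mouse 7, 139.8 in GC-KO mouse 1 and 50.4 in FL-KO mouse 2.

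Among the segments called in a comparison, Igkv9-120 reached 26.22 TPM in GC-KO mouse 4 and Igkv8-27 63.8 in GC-KO mouse 12. Igkv9-124 reached 20.26 TPM in FL-WT mouse 7, 24.27 in GC-KO mouse 9 and 7.34 in FL-KO mouse 4. Igkv1-88 reached 53.1 TPM in GC-WT mouse 3, and Igkv2-109 reached 14.83 in FL-KO mouse 4. Igkv6-17 reached 55.62 TPM in FL-WT mouse 5 and 15.12 in FL-KO mouse 4. Igkv4-72 reached 56.89 TPM in GC-WT mouse 8 and 11.49 in FL-KO mouse 12, and in GC-KO mouse 4 it was low, at 2.66 against at least 5.35 in the rest. Igkv12-44 reached 36.15 TPM in FL-KO mouse 11.

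Of the pseudogenes, Igkv4-77 reached 2.11 TPM in GC-WT mouse 10 and Igkv4-73 reached 0.98 in GC-KO mouse 4. The pseudogene share of Igkv RNA was 0.650% in GC-WT mouse 10 and 0.863% in FL-WT mouse 8.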

How the results depend on the processing

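The number of segments called in the 4 comparisons (1, 3, 3 and 6) changed by more than 1.5 times as follows. For FL-WT vs. GC-WT it was 6 with a pseudocount of 0.1 (4 lower, 2 higher), 4 without the 5 small RNAs, 2 with only the compared groups (1 lower, 1 higher) and 8 with no minimum fold change. In this order all genes gave 494, 230, 112 and 4821 lower and 16, 8, 8 and 123 higher. All genes tested were 12373, but 14383 without the 5 small RNAs and 28248 with no filter. Segments tested were 90, but 104 and 121 in these 2 settings. For FL-KO vs. GC-KO the segment count was 6 with a pseudocount of 0.1, 11 with no minimum fold change, and 1 each with no filter on low values, median-of-ratios scaling, quantile normalization or without the 5 small RNAs. In this order all genes gave 925, 6565, 260, 26, 25 and 187 lower and 15, 37, 0, 8, 7 and 5 higher. For GC-KO vs. GC-WT the segment count was 5 without the 5 small RNAs, 5 with only the compared groups and 7 with no minimum fold change. All genes gave 900, 377 and 5306 lower and 22, 16 and 387 higher. For FL-KO vs. FL-WT the segment count was 2 with no filter, 1 with median-of-ratios scaling, 1 with quantile normalization and 13 with no minimum fold change. All genes gave 1027, 370, 309 and 5844 lower and 10, 29, 28 and 236 higher. The cause of these changes was not tested. Igkv9-120 and Igkv8-27 in the flight comparisons were called under all 12 other settings, and Igkv12-89 under all 11. Among named segments 1039 values kept their direction and side of the threshold under other settings, 36 lost the call and 17 gained one.

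The summed ratio for FL-KO vs. FL-WT was 0.966 with median-of-ratios scaling. Detected segments per mouse were 66.5, 63.8, 63.7 and 61 above 1 TPM and 88.7, 87.5, 87.5 and 85.8 counting V genes only. The inverse Simpson index was 25.5, 23.95, 23.1 and 27.2.

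Leaving out each mouse in turn, counts ran from 1 to 3, 1 to 5, 2 to 7 and 4 to 8, with 0 for the interaction. For FL-WT vs. GC-WT the count was 3 without GC-WT 3, 6 or 10 or FL-WT 3 or 7, and 2 without GC-WT 7 or 8 or FL-KO 4. For FL-KO vs. GC-KO it was 1 without FL-KO 2 and 5 without FL-KO 9, and for GC-KO vs. GC-WT it was 7 without GC-WT 6 and 5 without GC-WT 10. The summed ratios ran over 0.741 to 0.916, 0.724 to 0.823, 0.672 to 0.820 and 0.621 to 0.752. Detected segments ran over 92.8 to 94.2, 91.6 to 93.8, 91.6 to 94.4 and 89.4 to 92, and effective numbers over 38.4 to 42.3, 39.1 to 42, 38.4 to 41.2 and 40.1 to 43.6.

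With mouse number as a replicate block, the flight comparisons gave 1 and 3 called segments, as without it. Same-numbered mice share a number and a genotype, and the sample titles do not say whether they were matched. Their correlations ran from -0.026 to 0.27 over 12 pairs. Of 24 libraries 8 correlated best with their own number, among the 6 mice of that genotype in the other housing. Wild-type and knockout mice share no numbers, so the genotype comparisons had no block. With depth unknown, segments under 1 TPM cannot be given a counting error.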

Other observations

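The summed Igkv level relative to Ighm, the heavy chain constant gene of IgM, was 1.90 ± 0.211 in GC-WT mice and 2.59 ± 0.527 in FL-WT mice, against 3.53 ± 0.665 and 4.86 ± 0.541 in the knockout ground and flight mice (SD, n = 6). Wild-type ground mice, from 1.57 to 2.10, did not overlap knockout ground mice, from 2.57 to 4.43, and flight mice of the 2 genotypes did not overlap either, at 1.89 to 3.399 and 4.15 to 5.68. As a ratio within a library it does not depend on the scaling between libraries. The higher ratio in knockout mice is not a higher Igkv level. The summed Igkv means were 637 and 487 TPM in knockout ground and flight mice, against 873 and 712 in wild-type mice, so mean Ighm was lower still in proportion. Of all single genes 9.15% on the ground and 20.6% after flight were lower in every knockout than in any wild-type mouse. These shares are of TPM values, which depend on the scaling between libraries. How often a ratio of genes within a library separates the genotypes was not computed. The ratio to Ighm was noticed in these data and not tested.

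The Igkv1 family, which includes Igkv1-110, Igkv1-117 and Igkv1-135, summed to 105 ± 23.2 TPM in GC-WT and 84.3 ± 13.3 in FL-WT mice, and to 75.4 ± 15.1 in GC-KO against 44.2 ± 10.2 in FL-KO mice. Its FL-KO mice, from 29.8 to 55.5 TPM, lay below every mouse of the other groups, the lowest of which had 57.7. After median-of-ratios scaling the groups overlapped, with means of 82.1 ± 25.9, 81.4 ± 10.97, 75.2 ± 20.4 and 57.5 ± 6.40 in the same order and FL-KO mice from 47.9 to 64.99. In TPM 18.4% of all single genes were lower in every FL-KO mouse than in any GC-KO mouse. Against FL-WT mice the share was 20.6%.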
